A study of Mus musculus with 168 samples.

Results

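The 31 genes of fatty acid oxidation followed here were taken by name from the 42405 gene symbols measured in single brain cells of old mice. They comprise 20 genes of the mitochondrial steps, 4 of the peroxisomal steps, and 7 others: the brain carnitine palmitoyltransferase Cpt1c, 3 regulators, an acyl-CoA binding protein and 2 thioesterases. Each gene was found under its own symbol in the tables. RNA of 150 cells was read by Smart-seq2, which covers whole transcripts and amplifies each cell on its own. The 13 astrocytes labelled striatum and the 4 labelled somatosensory cortex were from male C57BL/6 mice aged 25 months, with 3 to 4 animals pooled. Cells labelled neural stem cells came from the subventricular zone (SVZ), which lines the lateral ventricles, of male C57BL/6 mice given as 23 months in the sample labels and 22 months in the protocol, with 4 animals pooled. The other cells of the 150 are of the SVZ and carry 2 name series, ogp2 (65 cells) and ogp (68 cells), and the labels do not say what separates them. All cells were sorted for the surface protein GLAST and against CD45 and O4, and the SVZ cells also for CD133. No label ties a cell to an animal, so each region is 1 sample. Cells are not replicates, no difference between groups was tested, and ranges given below are spreads between cells.

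Long-chain fatty acids enter the mitochondrion as carnitine esters made by CPT1, cross the inner membrane on a carrier, and are turned back into acyl-CoA by CPT2. Each round of oxidation then runs through an acyl-CoA dehydrogenase, a hydratase, a hydroxyacyl-CoA dehydrogenase and a thiolase, and the dehydrogenases pass their electrons to the respiratory chain through the electron transfer flavoprotein. Peroxisomes shorten very long and branched chains with enzymes of their own. In the brain the pathway is known mainly from astrocytes, and it is also active in neural stem and progenitor cells of the adult mouse.

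Values are TPM, transcript levels scaled by transcript length to a total of 1000000 per cell, so that levels can be set side by side between genes. The number of reads per cell is unknown, because TPM keeps no depth. The median striatum, cortex and SVZ cell had 3662, 3412 and 3517 genes at 1 TPM or more, and a cell at 1 TPM or more is called detected below. The GLAST gene Slc1a3 was detected in all 150 cells and the CD45 gene Ptprc in 0 of 150. In SVZ cells 10 oligodendrocyte markers summed to a median of 167 TPM (0 to 6302) and 10 microglia markers to 0.19 TPM (0 to 4751). There 10 ependymal markers summed to 252 TPM (0 to 2255) and 10 neuron markers to 166 TPM (0 to 1473). Of the ependymal markers Tmem212, Ccdc153, Ak7 and Spag17 were at 0 in all SVZ cells. Prom1, which encodes CD133, was detected in 0 of 13 striatum cells, 1 of 4 cortex cells and 10.5% of SVZ cells, so its transcript was not seen in most cells sorted for the protein. The columns of 5 SVZ cells of the ogp series sum to between 66189 and 309864 TPM, where the other columns sum to about 1000000. Every cell was rescaled to 1000000, and without these 5 cells the median differences and rank correlations described below kept their direction.

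Together the 20 mitochondrial genes made up a similar part of the RNA in the 3 regions. Their summed level had a median of 3894 TPM in striatum cells (lowest 2338, highest 5466). In the 4 cortex cells it was 4030, 3205, 6756 and 3769 TPM. In SVZ cells the median was 3655 TPM (lowest 860, highest 7310), and this range covers all striatum and cortex cells. The 4 peroxisomal genes summed to a median of 345 TPM in striatum cells (lowest 0, highest 758), to 292, 357, 393 and 704 TPM in the cortex cells, and to a median of 308 TPM in SVZ cells (lowest 0, highest 1271). The median cell held 17 of the 31 genes in striatum, 18 in cortex and 16 in SVZ.

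**Figure D1:**
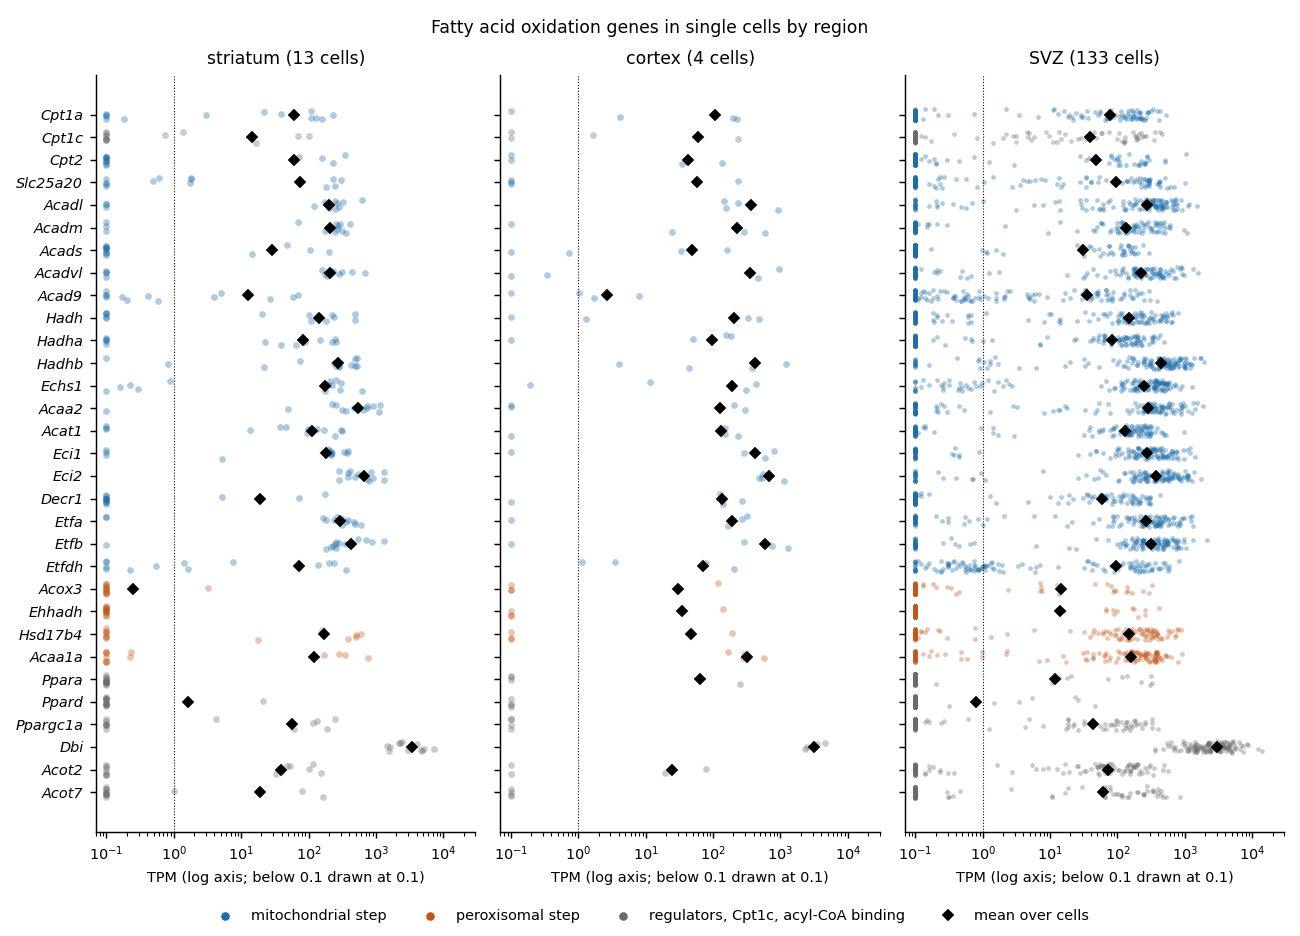
Level of each of the 31 genes in single cells of striatum (13 cells), cortex (4 cells) and SVZ (65 ogp2 and 68 ogp cells), in TPM on a log axis. Each circle is a cell, black diamonds are means over cells, the dotted line marks 1 TPM and values below 0.1 TPM are drawn at 0.1. Dbi stands above all other genes in each region, and most other genes are at or near 0 in part of the cells.

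Dbi, the acyl-CoA binding protein that carries acyl-CoA esters in the cytosol, was the most abundant member in all 3 regions and was detected in every cell. It averaged 3382 TPM in striatum (lowest 1467, median 2997, highest 7260), had 4518, 2455, 2333 and 3488 TPM in the cortex cells, and averaged 2949 TPM in SVZ (lowest 359, median 2378). Eci2, an enoyl-CoA isomerase that shifts double bonds of unsaturated fatty acids, ranked second among the 31 genes in striatum and cortex, behind Dbi. Eci2 is counted here with the mitochondrial genes only, and RNA levels do not show in which compartment its product works. Hadhb, which carries the thiolase of the mitochondrial trifunctional protein, ranked second in SVZ. Of the 31 genes 30 reached a mean of 20 TPM in at least 1 region. The exception was Ppard, a fatty acid sensing nuclear receptor, detected in 1 of 13 striatum cells, 0 of 4 cortex cells and 4.51% of SVZ cells.

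The genes of the carnitine shuttle were low and patchy in every region. Cpt1a, the transferase that commits long-chain fatty acids to oxidation, averaged 61.4 TPM in striatum (8 of 13 cells), 107.2 TPM in cortex (3 of 4 cells) and 76.3 TPM in SVZ (70 cells, 52.6%, exact 95% interval 43.8% to 61.3%). Slc25a20, the carnitine-acylcarnitine carrier of the inner membrane, averaged 74.4, 58.7 and 94.7 TPM in striatum, cortex and SVZ, and in cortex a single cell at 235 TPM supplied all of it. Cpt2, which regenerates acyl-CoA in the matrix, was detected in 4 of 13 striatum cells, 2 of 4 cortex cells and 24.8% of SVZ cells. Cpt1c, the brain form bound to the endoplasmic reticulum with little transferase activity, averaged 14.7 TPM in striatum, 59.5 TPM in cortex and 39.3 TPM in SVZ. All intervals for shares of cells are Clopper-Pearson intervals and cover counting error only.

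The acyl-CoA dehydrogenases, which start each round and differ in the chain length they take, stood at 2 levels. Acadl, Acadm and Acadvl, for long, medium and very long chains, averaged 204, 205 and 209 TPM in striatum. In cortex they averaged 364, 226 and 353 TPM, and in SVZ 275, 136 and 222 TPM. Acads, for short chains, averaged 28.5 TPM in striatum, 48.7 TPM in cortex and 30.6 TPM in SVZ. Acad9, known chiefly as an assembly factor of complex I, averaged 12.7, 2.69 and 34.9 TPM in striatum, cortex and SVZ. Of the exon bases of Acadvl, 1151 of 2686 overlap Dvl2 on the other strand, and the labels do not say that reads were assigned by strand, so part of its level could belong to that gene.

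Of the enzymes of the later steps, Hadha and Hadhb form 1 complex, the trifunctional protein, yet their levels were far apart. Hadha averaged 83.7 TPM in striatum, 97.7 TPM in cortex and 82.6 TPM in SVZ, where Hadhb averaged 276, 413 and 449.6 TPM. Over all SVZ cells their rank correlation was -0.06 (-0.09 in ogp2 and -0.01 in ogp cells). The 2 genes lie head to head on chromosome 5, with Hadha at chr5:30118304-30155162 on the minus strand and Hadhb at chr5:30155248-30184593 on the plus strand (GRCm38, GENCODE M21), and their RefSeq starts are 273 bases apart. The 85 bases between the annotated genes are printed because they belong to both promoters. They are chr5:30155163-30155247 on the plus strand, from the RefSeq promoter table of build GRCm38.p6, 5′ to 3′, and capitals mark GGGCGG, the GC box.
Hadha-Hadhb gap: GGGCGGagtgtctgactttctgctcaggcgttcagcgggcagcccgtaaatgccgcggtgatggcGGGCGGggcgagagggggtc

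Echs1, the short-chain enoyl-CoA hydratase, averaged 174 TPM in striatum, 189 TPM in cortex and 247 TPM in SVZ. Hadh, which takes the following step for medium and short chains, averaged 141, 202 and 148.7 TPM in the same order. Acat1, the thiolase that also works in ketone body and isoleucine breakdown, averaged 111.7, 132.1 and 127.4 TPM. The means of these 3 genes lay well inside the spread between cells, which began at or near 0 TPM in each region. Acaa2, the general mitochondrial thiolase, was the member of this group with the widest gaps. It averaged 533 TPM in striatum (lowest 0, median 471, highest 1152, 12 of 13 cells), had 208, 0, 294 and 0 TPM in the cortex cells, and averaged 288 TPM in SVZ (lowest 0, median 194, highest 1838, 64.7% of cells). The striatum cells centred above the cortex cells, while the SVZ cells spanned both.

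Eci2 was the only enzyme among the 31 detected in all astrocytes. It averaged 671 TPM in striatum (lowest 280, median 550.0, highest 1328), had 1137, 528, 553 and 474 TPM in the cortex cells, and averaged 376 TPM in SVZ (lowest 0, median 287, highest 1755, 81.2% of cells). Eci1, the other isomerase counted here with the mitochondrial genes, averaged 182 TPM in striatum, 418 TPM in cortex and 274 TPM in SVZ. Decr1, the reductase needed for unsaturated chains, averaged 19.2 TPM in striatum (3 of 13 cells), 136 TPM in cortex (3 of 4 cells) and 58.3 TPM in SVZ (45.1% of cells). The electron transfer flavoprotein subunits Etfa and Etfb averaged 291 and 419.7 TPM in striatum, 189 and 589 TPM in cortex and 269 and 311 TPM in SVZ. Etfdh, the enzyme that hands their electrons to ubiquinone, was far lower, at 72.6, 71.3 and 95.4 TPM. Etfb shares 617 of its 1164 exon bases with a predicted gene on the same strand, so its reads could have been split.

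In SVZ the peroxisomal genes formed a pair seen in many cells and a pair seen in few. Acaa1a, the peroxisomal thiolase, averaged 119.6 TPM in striatum, where 4 of 13 cells held it. It had 292, 166, 274 and 565 TPM in the cortex cells, so all 4 held it, and it averaged 159 TPM in SVZ (66.2% of cells). Hsd17b4, the multifunctional enzyme of branched and very long chains, averaged 167 TPM in striatum (6 of 13 cells), 47.7 TPM in cortex (1 of 4 cells) and 148 TPM in SVZ (58.6% of cells). Acox3, an oxidase of branched chains, was detected in 1 of 13 striatum cells, 1 of 4 cortex cells and 20 SVZ cells. Ehhadh, the multifunctional enzyme of straight chains, was listed at 0 in all 13 striatum cells, which allows a share of up to 24.7%, and was detected in 1 of 4 cortex cells and 12 SVZ cells (9.02%). Acaa1a has a near-identical copy in the mouse genome, as do Eci2 and Acot2, and Dbi has many pseudogenes, so the levels of these 4 genes are less certain.

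Among the regulators, Ppara, the nuclear receptor that drives fatty acid oxidation genes in liver, was rare. It was listed at 0 in all 13 striatum cells, was detected in 1 of 4 cortex cells, at 252 TPM, and in 11 SVZ cells (8.27%, exact interval 4.20% to 14.3%). Ppargc1a, a coactivator of mitochondrial genes, averaged 57.7 TPM in striatum (6 of 13 cells) and 42.6 TPM in SVZ (36.8% of cells). All 4 cortex cells were listed at 0, which allows a share of up to 60.2%. Acot2, a mitochondrial thioesterase that frees fatty acids from acyl-CoA, averaged 38.7, 24.5 and 71.1 TPM in striatum, cortex and SVZ. Acot7, a cytosolic thioesterase of neurons, averaged 19.1 TPM in striatum (3 of 13 cells), averaged 61.5 TPM in SVZ (29.3% of cells) and had no cortex cell above 0.

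Set against SVZ cells, striatum cells differed little over the mitochondrial genes. Differences are on the scale log2(mean TPM + 1), striatum minus SVZ here, for genes that reach 10 TPM in 1 or both, and a gene is called at 2-fold. Of the 20 genes 7 were higher and 13 lower in striatum, with a median of -0.14 against -0.26 for the 9080 genes that entered. Called lower were Acad9 (-1.39) and Decr1 (-1.55), that is 2 of 20, where 28.3% of all genes were called lower, and 0 of 20 were called higher, where 12.3% of all genes were. Acaa2 and Eci2 came nearest to a call upward, at 0.89 and 0.83. The direction of the median rested on the scale: averaging log2(TPM + 1) over cells gave 0.14, with all genes at -0.11. Its side of all genes rested on the filter. With 10 TPM required in both groups all genes stood at -0.09, above the mitochondrial median, which stayed at -0.14. Of the peroxisomal genes Acox3 was called lower and Ehhadh was listed at 0 in striatum, while Hsd17b4 and Acaa1a lay within 2-fold (0.18 and -0.41).

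In cortex, with 4 cells, the median of the mitochondrial genes stood above that of all genes. Against SVZ 12 of the 20 mitochondrial genes were higher and 8 lower, with a median of 0.32 against -0.49 for the 8940 genes that entered. Decr1 was called higher (1.2), which is 1 of 20 where 20.7% of all genes were called higher. Acaa2 (-1.19) and Acad9 (-3.28) were called lower, where 43.4% of all genes were. Leaving out the third cortex cell, whose mitochondrial sum was the highest at 6756 TPM, brought the median to -0.03, but that of all genes also moved, to -0.84. Median-ratio scaling gave -0.02, again with all genes at -0.84, so the mitochondrial median stayed above that of all genes in both. Of the peroxisomal genes Acaa1a was called higher in cortex (1.02) and was detected in every cortex cell. Ehhadh (1.23) was called higher and Hsd17b4 (-1.61) lower, each from 1 cortex cell that held it. The positive median of the 4 peroxisomal genes, 1.00, turned to -0.05 without the third and to -0.29 without the fourth cortex cell.

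Striatum against cortex placed 6 of the 20 mitochondrial genes higher and 14 lower, with a median of -0.23 against 0.10 for 8276 genes. Acaa2 (2.08) and Acad9 (1.89) were called higher in striatum, where 38.3% of all genes were, and Eci1 (-1.20) and Decr1 (-2.75) lower, where 28.9% were. Under median-ratio scaling the median was 0.16, with all genes at 0.62, so the mitochondrial median stayed below that of all genes. That order rested on the filter on low values. With 10 TPM required in both regions all genes stood at -0.39, below the mitochondrial median. Against low-ribosome SVZ cells alone, as defined below, the mitochondrial median was -0.21 for striatum, with all genes at -0.17, and 0.25 for cortex, with all genes at -0.32. For striatum it thus passed to the other side of the median of all genes. Of the 20 genes Acad9 and Decr1 were again called lower in striatum, where 24.5% of all genes were, Acad9 and Acaa2 lower in cortex, where 40.8% were, and Decr1 higher in cortex, where 22.6% were. Since both regions were also set against the same SVZ cells, these comparisons share their cells. Ages differ between the astrocytes and the SVZ cells, so region, sort and age cannot be told apart in the comparisons with SVZ.

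Within the SVZ the cells differed widely in the share of their TPM held by 79 ribosomal protein genes. This share had a median of 1.81% (lowest 0.673%, highest 14.9%), with 21 cells at 6% or more, 11 between 3% and 6%, and the others below 3%. The cuts make ranges of a continuous measure, not cell types, and 10 cells lay within 0.5 points of the lower cut and 4 of the upper one. The cells at 6% or more are called ribosome-rich here and those below 3% low-ribosome. Other measures moved with this share, and their part in the results below was not tested. The median ribosome-rich cell had 6326 genes detected and the median low-ribosome cell 3250. The summed level of 10 cycling markers had a median of 656 TPM in ribosome-rich cells (range 0.64 to 11969.7) and 1.01 TPM in low-ribosome cells (0 to 794), and Mki67 was detected in 9 of 21 ribosome-rich cells and in no low-ribosome cell. At least 1 of 5 mitotic markers (Mki67, Top2a, Cdk1, Ccnb1 and Ube2c) was detected in 13 ribosome-rich, 2 intermediate and 9 low-ribosome cells. These 9 were kept in the low-ribosome range in every comparison. The summed level of 10 astrocyte markers had a median of 1531 TPM in ribosome-rich cells (369 to 12508) and 15760 TPM in low-ribosome cells (1546 to 27389). The neuroblast list had a median of 61.7 TPM in ribosome-rich cells (0 to 917, with Dlx5, Dlx6os1, Sp8 and Sp9 at 0 in all cells) and 0 in low-ribosome cells (0 to 141). The ependymal list had a median of 0.35 TPM in ribosome-rich cells (0 to 310) and 404 TPM in low-ribosome cells (0 to 2255). For the neuron list the medians were 15.3 TPM (0 to 307) and 250 TPM (0 to 1473). Of the ribosome-rich cells 6 were of the ogp2 and 15 of the ogp series, against 55 and 46 of the low-ribosome cells.

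The summed mitochondrial genes were lower in cells with a higher ribosomal protein share. In ribosome-rich cells the sum had a median of 2253 TPM (lowest 1087, highest 3718), in the 11 cells between the cuts 2756 TPM (1656 to 6569), and in low-ribosome cells 4034 TPM (860 to 7310). No ribosome-rich cell exceeded the low-ribosome median, though the ranges overlapped. Within the ribosome-rich cells the median sum was 1872 TPM in the 13 cells with a mitotic marker (1087 to 2534). In the 8 without it was 2842 TPM (1260 to 3718), and both medians lay below the low-ribosome one. The rank correlation over all SVZ cells was -0.38, and within the name series it was -0.30 in ogp2 and -0.32 in ogp cells. It was -0.15 over the cells below 6%, weaker than with the ribosome-rich cells, and -0.22 with the number of genes detected held fixed. These points share a total of 1000000 TPM per cell, and with ribosomal protein genes taken out of that total it was -0.34.

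**Figure D2:**
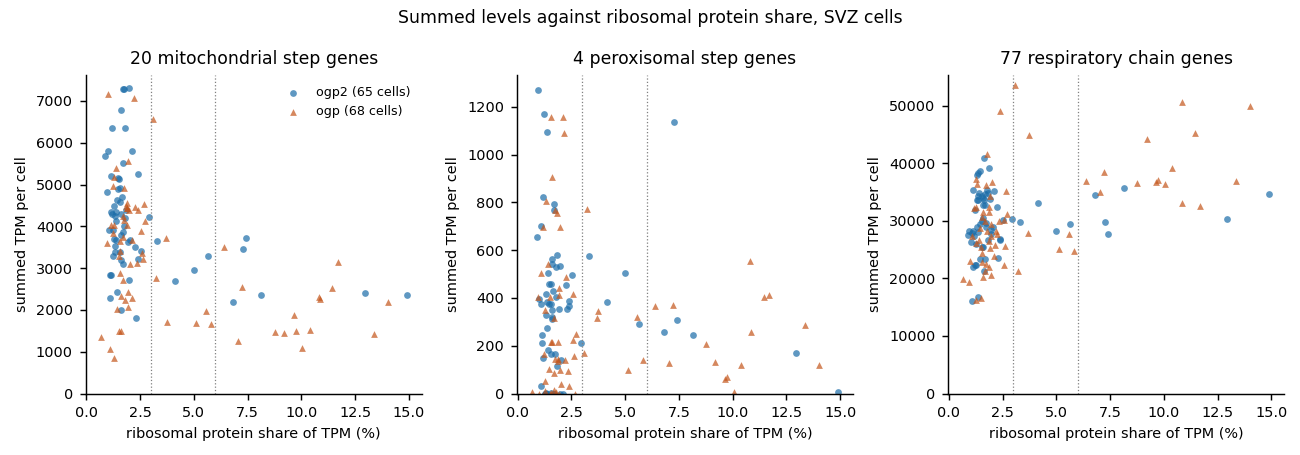
Summed TPM of the 20 mitochondrial step genes, the 4 peroxisomal step genes and 77 respiratory chain genes in each SVZ cell, against the ribosomal protein share of TPM in percent. Circles are ogp2 cells, triangles ogp cells, and dotted lines mark 3% and 6%. The mitochondrial sums of cells at 6% or more all lie at or below 3718 TPM, while their respiratory chain sums all lie at or above 27729.6 TPM.

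The peroxisomal sum showed hardly any such relation, with a rank correlation of -0.08 (-0.06 in ogp2 and -0.01 in ogp cells) and medians of 243 TPM in ribosome-rich cells (5.80 to 1135) and 319 TPM in low-ribosome cells (0 to 1271). Within the ribosome-rich cells its median was 130.5 TPM in the 13 cells with a mitotic marker (5.80 to 402) and 367 TPM in the 8 without (129.3 to 1135), which lie on either side of the low-ribosome median. The respiratory chain, which takes up the electrons that fatty acid oxidation releases, went the other way. Its 77 nuclear genes summed to a median of 36510.1 TPM in ribosome-rich cells (27729.6 to 50557) and 28721 TPM in low-ribosome cells (16025 to 49029), with a rank correlation of 0.36. Glycolysis, with 17 genes, was lower in ribosome-rich cells, at a median of 8426 TPM (4452 to 15176) against 21348 TPM in low-ribosome cells (5193 to 39022), and its rank correlation was -0.44.

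Gene by gene, 17 of the 20 mitochondrial genes had a lower mean in ribosome-rich than in low-ribosome cells, with a median difference of -0.94 where the 9283 genes that entered had 0.16. Called lower were 9 of the 20, against 23% of all genes, and 0 of 20 were called higher, against 26.8% of all genes. For comparison, 63 of 77 respiratory chain genes were higher in ribosome-rich cells, with a median of 0.28, and 12 of the 15 glycolysis genes that entered were lower, with a median of -0.98. When log2(TPM + 1) was averaged over cells instead, the mitochondrial median was -0.03 and that of all genes 1.32. The mitochondrial genes thus stayed below the general shift on both scales, but on the second they split into 10 higher and 10 lower. The 11 cells between the cuts lay between the other ranges, with 15 of 20 mitochondrial genes lower than in low-ribosome cells, a median of -0.36 (all genes 0.29) and 4 called lower, where 18.9% of all genes were called lower and 29.2% higher. Between the name series, ogp2 over ogp SVZ cells, the mitochondrial median was 0.30 and that of all genes -0.09, and Slc25a20 (1.21) was called higher in ogp2, which is 1 of 20 where 7.01% of all genes were. Within the series the median, ribosome-rich over low-ribosome, was -0.72 in ogp2 cells and -0.88 in ogp cells. With the 8 ribosome-rich cells that held none of 5 mitotic markers it was -0.54, and between the top and bottom 25% of SVZ cells by ribosomal protein share -0.57, where the medians of all genes in these 4 settings lay between 0.11 and 0.29.

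**Figure D3:**
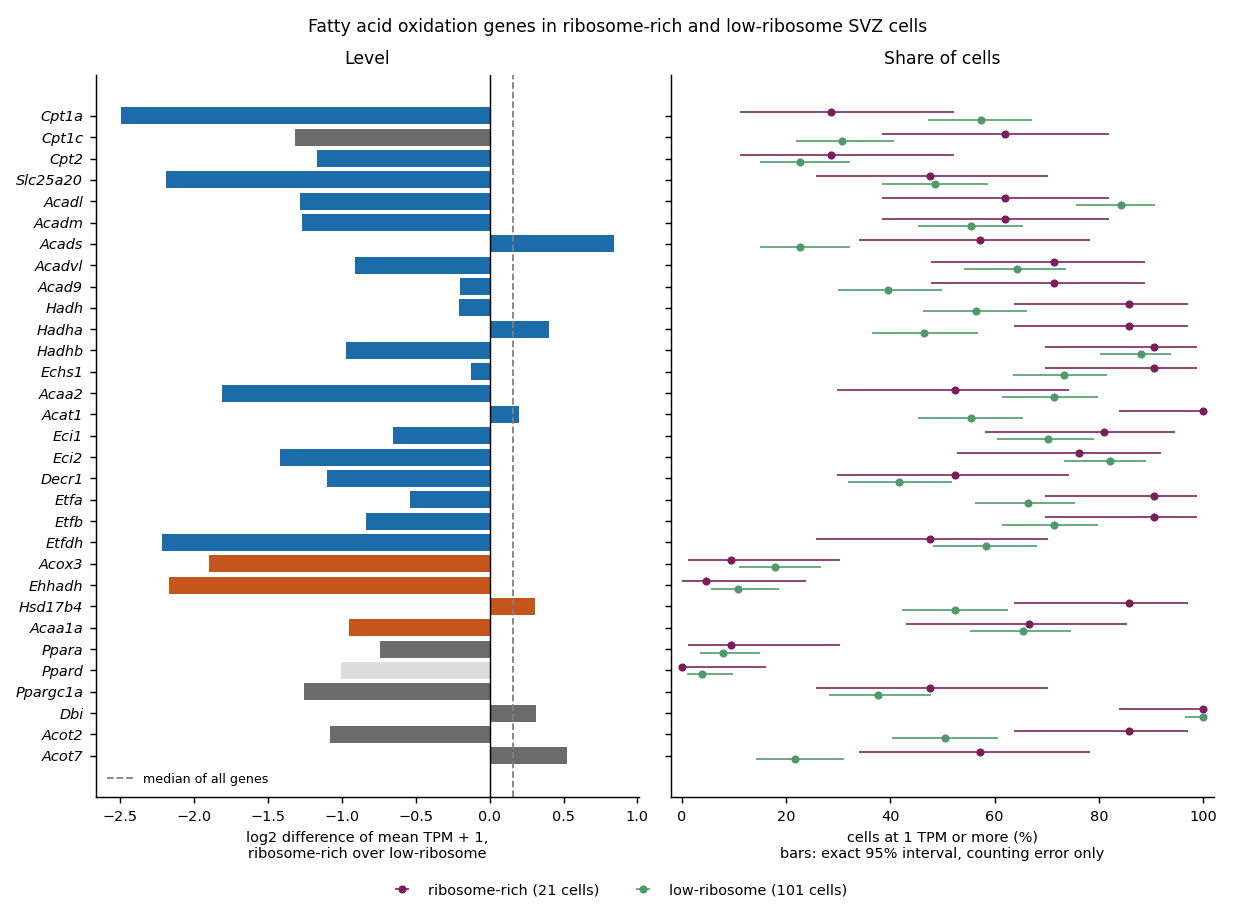
Left, log2 difference of mean TPM + 1, ribosome-rich (21 cells) over low-ribosome (55 ogp2 and 46 ogp cells) SVZ cells, for the 31 genes, with mitochondrial step genes in blue, peroxisomal in orange and others in dark grey; Ppard, pale grey, was below 10 TPM in both. Right, percent of cells at 1 TPM or more in both ranges with exact 95% intervals. Cpt1a, Etfdh and Slc25a20 have the lowest bars among the mitochondrial genes, and Acat1 and Dbi are at 100% in ribosome-rich cells.

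All 4 genes of the carnitine shuttle list were called lower in ribosome-rich cells, where 23% of all genes were. Cpt1a averaged 14.8 TPM there (median 0.08, highest 145, 28.6% of cells) and 88 TPM in low-ribosome cells (median 21.1, highest 432, 57.4% of cells), a difference of -2.49. It was lower in both name series (-1.47 in ogp2, -3.25 in ogp). Within the ribosome-rich cells it averaged 2.73 TPM in the 13 with a mitotic marker (2 of 13 cells) and 34.4 TPM in the 8 without (4 of 8 cells). Slc25a20 averaged 24.5 TPM in ribosome-rich and 115.3 TPM in low-ribosome cells (-2.19; -2.26 in ogp2 and -1.68 in ogp), although it was detected in a similar part of them, 47.6% and 48.5% of cells. Cpt2 averaged 23.7 and 54.4 TPM in ribosome-rich and low-ribosome cells, and its difference of -1.16 was 0.04 within ogp2 cells. For Cpt1c, at 16.1 and 41.5 TPM, the difference of -1.31 became 0.65 when log values were averaged, and it was detected in 61.9% of ribosome-rich and 30.7% of low-ribosome cells.

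The stretches upstream of Cpt1a and Slc25a20, the shuttle genes with the widest gaps, are printed with that of Acads, the mitochondrial gene with the largest difference in the other direction. They come from the RefSeq promoter table of build GRCm38.p6, are outside annotated exons, and run 5′ to 3′ in the direction of the gene. They are chr19:3323135-3323284 on the plus strand for Cpt1a, ending 17 bases before the RefSeq start, chr9:108661938-108662087 on the plus strand for Slc25a20, ending 49 bases before it, and chr5:115119347-115119496 on the minus strand for Acads, ending next to it. The Cpt1a stretch lies inside the annotated gene, chr19:3322334-3385733, and is upstream of the RefSeq start only. Capitals mark AGGTCA, the core site of nuclear receptors, and the GC box GGGCGG on either strand.
Cpt1a upstream: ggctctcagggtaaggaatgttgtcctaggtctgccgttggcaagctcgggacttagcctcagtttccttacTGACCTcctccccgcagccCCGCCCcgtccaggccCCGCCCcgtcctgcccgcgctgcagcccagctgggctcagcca
Slc25a20 upstream: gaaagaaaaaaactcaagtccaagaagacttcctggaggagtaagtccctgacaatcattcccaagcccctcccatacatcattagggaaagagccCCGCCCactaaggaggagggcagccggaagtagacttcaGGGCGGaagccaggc
Acads upstream: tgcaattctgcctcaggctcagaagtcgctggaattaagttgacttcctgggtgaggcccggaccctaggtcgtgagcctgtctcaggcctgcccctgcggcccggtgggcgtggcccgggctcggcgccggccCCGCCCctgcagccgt

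The full windows, 250 bases before to 50 after the start, were at hand for 26 of the 31 genes and were searched on both strands. A gene was counted when any window under its symbol held the letters. The percentages are shares of single windows, so genes are set beside windows. The GC box stood in 20 of the 26, against 35.7% of 32851 windows of that length, and in genes of both directions. The core site AGGTCA stood in 5 of the 26 (Cpt1a, Cpt1c, Acadm, Acadvl and Echs1), against 16.3% of windows. The complete PPAR element, which is this core site repeated with 1 base of any kind between, and the ERR element TCAAGGTCA, which also contains it, were in 0 of the 26, against 0.0396% and 0.423% of windows. The NRF1 site was in Etfdh and Ppara, against 0.971% of windows, and CCAAT in 12 of the 26, against 37.4%. A match describes letters only, and no match says only that these letters are not in the window.

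Among the acyl-CoA dehydrogenases, those for long and medium chains were called lower in ribosome-rich cells. Acadl averaged 128.6 TPM there (median 42, 61.9% of cells) and 315 TPM in low-ribosome cells (median 308, 84.2% of cells), a difference of -1.29. Acadm averaged 64.5 and 157 TPM in ribosome-rich and low-ribosome cells (-1.27), and Acadvl 129.8 and 245 TPM (-0.91). With the 8 ribosome-rich cells that held none of the mitotic markers, the differences were -0.40 for Acadl, -0.45 for Acadm and 0.16 for Acadvl. Within ogp2 and ogp cells they were -0.67 and -1.46 for Acadl, -1.35 and -0.94 for Acadm, and -0.09 and -1.38 for Acadvl. Acads was the exception, at 50.8 TPM in ribosome-rich cells (median 37.2, 57.1% of cells) and 27.9 TPM in low-ribosome cells (median 0, 22.8% of cells), a difference of 0.84 that was 1.15 within ogp2 and 0.96 within ogp cells. Acad9 was detected in 71.4% of ribosome-rich and 39.6% of low-ribosome cells, while its means were 30.6 and 35.2 TPM.

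At the trifunctional protein the pair of subunits parted again. Hadhb averaged 259 TPM in ribosome-rich cells (median 195, highest 723) and 509 TPM in low-ribosome cells (median 485, highest 1917), a difference of -0.97. Hadha averaged 103.9 TPM in ribosome-rich cells (median 103.7, 85.7% of cells) and 78.6 TPM in low-ribosome cells (median 0.21, 46.5% of cells), a difference of 0.40. That of Hadha was 0.07 in ogp2 and 0.99 in ogp cells, and comparing the top with the bottom 25% of SVZ cells by ribosomal protein share gave -0.26. Hadha averaged 147.1 TPM in the 8 ribosome-rich cells without a mitotic marker. In the 13 with one it averaged 77.3 TPM, about the low-ribosome mean. For Hadhb these means were 330 and 216 TPM, both below the low-ribosome mean. The difference of Hadhb was -0.90 in ogp2 and -0.89 in ogp cells. Acaa2 averaged 98.6 TPM in ribosome-rich cells (median 13.2, 52.4% of cells) and 348 TPM in low-ribosome cells (median 292, 71.3% of cells), the lowest of this group at -1.81. The other enzymes of these steps were close to even: Hadh at -0.21, Echs1 at -0.13 and Acat1 at 0.20. Acat1 was detected in all 21 ribosome-rich cells (exact interval 83.9% to 100%) and in 55.4% of low-ribosome cells (45.2% to 65.3%).

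The genes for unsaturated chains were lower in ribosome-rich cells, with Eci2 at 156 TPM against 418 TPM in low-ribosome cells (-1.42), Decr1 at 28.7 against 62.7 TPM (-1.10) and Eci1 at 188 against 296 TPM (-0.65). The difference of Decr1 was 0.18 when log values were averaged over cells. Of the electron transfer genes Etfdh stood out, with 23.8 TPM in ribosome-rich cells (median 0.94, highest 161) and 114.05 TPM in low-ribosome cells (median 1.47, highest 832), a difference of -2.21 that was -2.03 within ogp2 and -2.23 within ogp cells. The medians of both ranges were thus near 1 TPM, and the gap lay in the cells that held much of it. Etfa and Etfb differed less, at -0.54 and -0.84.

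Of the peroxisomal genes Ehhadh (-2.17) and Acox3 (-1.90) were called lower, but both rest on few cells, 1 and 2 ribosome-rich cells and 11 and 18 low-ribosome cells. Acaa1a averaged 89.3 TPM in ribosome-rich and 173 TPM in low-ribosome cells (-0.95), and Hsd17b4 170.2 and 138 TPM (0.30). In the 8 ribosome-rich cells without a mitotic marker Hsd17b4 averaged 282 TPM, and in the 13 with one 101.6 TPM. For Acaa1a these means were 149 and 52.3 TPM. With the 4 peroxisomal genes the median was -1.42, and -0.32 when only the 2 genes with 10 TPM in both ranges were kept. Ppargc1a averaged 20.5 TPM in ribosome-rich cells (47.6% of cells) and 50.3 TPM in low-ribosome cells (37.6% of cells), a difference of -1.26. Acot2 averaged 35.9 and 77.2 TPM in ribosome-rich and low-ribosome cells (-1.08, but 0.65 with log values averaged), and Acot7 87.1 and 60.2 TPM (0.53). Dbi averaged 3233 TPM in ribosome-rich cells (861 to 12250.2), 5595 TPM in the cells between the cuts (689.8 to 14037) and 2602 TPM in low-ribosome cells (359 to 8396), so its mean was highest in the middle range.

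Shares of cells gave a different picture from means. Among the 27 members detected in at least 20% of SVZ cells, 20 were detected in a larger share of ribosome-rich than of low-ribosome cells, against 81.3% of the 6806 genes so detected, a share that moves with the number of genes per cell. For 15 of the 27 (55.6%) the share was larger but the mean lower in ribosome-rich cells, where 32.9% of all genes had that pattern, and no order is read from the shares of these 15. The number of the 31 genes detected per cell had a rank correlation of 0.39 with the ribosomal protein share and of -0.08 once the number of genes detected was held fixed. For Slc25a20 and Acot2, picked as examples with their values in view, the median level among detecting cells was 37.5 TPM in ribosome-rich and 235 TPM in low-ribosome cells for Slc25a20, and 40.4 and 140.1 TPM for Acot2.

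**Figure D4:**
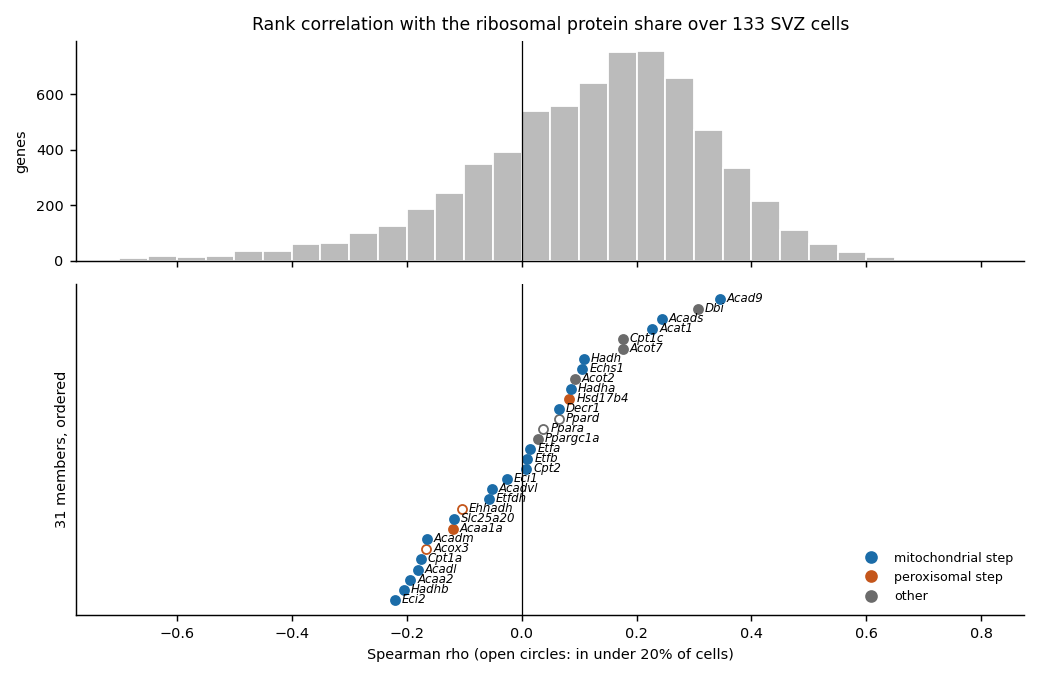
Top, number of genes by rank correlation (Spearman rho) of their TPM with the ribosomal protein share over all SVZ cells, for 6806 genes detected in at least 20% of cells. Bottom, the 31 members in order, with mitochondrial step genes in blue, peroxisomal in orange and others in grey; open circles are members in under 20% of cells. Members run from -0.22 for Eci2 to 0.34 for Acad9, while the median of all genes is 0.15.

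Single genes were only loosely tied to the ribosomal protein share, as sparse values allow. Of the 27 members Acad9 (0.34) and Dbi (0.31) reached 0.3, that is 2 of 27 against 18.3% of all 6806 genes, and 0 of 27 reached -0.3, against 3.79%. The lowest were Eci2 (-0.22), Hadhb (-0.21) and Acaa2 (-0.19). The median over the 27 members was 0.02 and over all genes 0.15. Dbi kept its sign in both series (0.22 in ogp2, 0.37 in ogp), among cells below 6% (0.38) and with the number of genes detected held fixed (0.26). Its mean level was 4839 TPM in the 8 ribosome-rich cells without a mitotic marker (2187 to 12250). It was 2244 TPM in the 13 with such a marker (861 to 5146), below the low-ribosome mean of 2602 TPM.

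Members were hardly tied to each other across SVZ cells. The 351 pairs among the 27 members had a median rank correlation of 0.03, and all pairs of the 6806 genes 0.04. The nearest pair was Etfa with Hsd17b4 (0.28; 0.21 in ogp2 and 0.30 in ogp cells). Etfa with Etfb, whose products form 1 dimer, had 0.10. Correlations of this size in sparse single-cell values are a description of these cells only.

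Other genes of lipid use around the pathway were taken from lists. Of 9 fatty acid entry genes with enough signal 7 were lower in ribosome-rich cells, 6 were called lower and 1 higher, against 23% and 26.8% of all genes. Acsbg1 and Acsl6, acyl-CoA synthetases that activate fatty acids, averaged 114.9 and 125.8 TPM in ribosome-rich cells and 1046 and 861 TPM in low-ribosome cells. Slc27a1, a fatty acid transport protein, averaged 187 TPM in ribosome-rich and 747 TPM in low-ribosome cells. Fabp7, the fatty acid binding protein of radial glia and progenitors, went the other way, with 1564 TPM in ribosome-rich cells (95.2% of cells) and 307 TPM in low-ribosome cells (50.5% of cells).

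Of 20 further mitochondrial genes that entered 16 were lower in ribosome-rich cells, with a median of -0.61. Called lower were 5 of the 20, near the 23% over all genes. Acss1, which activates acetate in the mitochondrion, averaged 66.8 TPM in ribosome-rich and 218 TPM in low-ribosome cells. Of 23 further peroxisomal genes 16 were lower and 8 were called lower, again against 23% of all genes, with a median of -0.83. Crot, which makes carnitine esters of chains shortened in peroxisomes, averaged 51.6 TPM in ribosome-rich and 271 TPM in low-ribosome cells. Of the 6 ketone body genes 5 were lower in ribosome-rich cells, with a median of -0.40. Oxct1, which is needed to use ketone bodies, was at 330.4 and 195 TPM in ribosome-rich and low-ribosome cells. Of 6 PPAR partner and target genes 4 were lower, and Angptl4, a PPAR target, was detected in 0 of 21 ribosome-rich cells and averaged 46.5 TPM in low-ribosome cells (19 cells).

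Between regions the same lists were mixed. Of the further mitochondrial genes 9 were higher and 11 lower in striatum than in SVZ, and of the further peroxisomal genes 9 were higher and 14 lower. Acsf2, a medium-chain acyl-CoA synthetase of mitochondria, averaged 112.8 TPM in striatum (11 of 13 cells) and 9.22 TPM in SVZ (42.1% of cells). Nudt7, a peroxisomal hydrolase of CoA, averaged 212 TPM in striatum (8 of 13 cells) and 36.5 TPM in SVZ (12.8% of cells), and no cortex cell held it. Abcd3, a peroxisomal fatty acid transporter, averaged 17.9 TPM in striatum (5 of 13 cells) and 101.8 TPM in SVZ (61.7% of cells). Fabp7 averaged 51.4 TPM in striatum (4 of 13 cells), 198 TPM in cortex (2 of 4 cells) and 579 TPM in SVZ (58.6% of cells). Slc16a1, a transporter of lactate and ketone bodies, averaged 140.1 TPM in cortex (4 of 4 cells) and 24.8 TPM in SVZ (22.6% of cells).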

How the data were processed

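The submitters mapped and quantified the reads of 150 single cells. Their processing notes list RSEM 1.2.18, STAR 2.4.0g1 and mm10 (GRCm38), and the gene annotation is not given in the sources used here. The deposited values are TPM per gene and cell, as their column sums show. Of 43309 identifiers 42425 have a symbol, and for a shared symbol only the identifier with the highest average was used. A pseudocount of 1 TPM, an entry floor of 10 TPM, a detection limit of 1 TPM and a 2-fold call were used. The analysis ran in Python 3.11.15 with numpy, pandas and scipy and was tested on simulated data. Spearman correlations are descriptions over cells that share depth and total. Members, lists and ranges were chosen with earlier results of these data known. All 31 members are described. For each further list up to 4 eligible genes were taken by the size of their difference, and the ones printed among them were picked with their values in view. Intervals are at the 95% level. The 18 libraries of sorted populations were not analysed here. Cells were hand-picked after sorting, per the labels, and doublets were not called. Alternatives covered the pseudocount, the filter on low values, scaling, name series, ranges of ribosomal protein share, cells left out and identifiers summed.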

Additional observations from a re-analysis of the deposited data

Results flagged for a closer look

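The 4 cortex cells were few enough for single cells to stand far from the other 3 by Dixon's test at the 95% level, which sets the gap to the nearest cell against the whole range. Of 30 quantities examined 8 passed its limit. Chance alone picks about 1 in 20 groups, a share that does not hold for genes at 0 in most cells, and no rate is read from the 8. Cpt1c reached 236 TPM in the third cortex cell and at most 1.64 TPM in the others. Slc25a20 (235 TPM) and Acox3 (118.98 TPM) were also seen in the third cell alone, with the others listed at 0. Hsd17b4 (191 TPM) was seen in the second cell alone. Ehhadh (139 TPM) and Ppara (252 TPM) were seen in the fourth cell alone. Acadl reached 922 TPM in the fourth cell and at most 235 TPM in the others. Eci2 reached 1137 TPM in the first cell and at most 553 TPM in the others. The 5 genes with the other 3 cells listed at 0 pass the limit by construction, and what sets these cells apart was not tested.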

How the results depend on the processing

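Cortex values rest on 4 cells, depth is unknown, and no alternative supplies replicates of a region. For striatum over SVZ the mitochondrial median of -0.14 was 0.14 with log values averaged over cells; the peroxisomal median of -2.03 was -0.82 and -2.92 at pseudocounts of 10 and 0.1, -0.11 with 10 TPM in both groups, -0.72 with log values averaged and -0.10 against ogp cells only. For cortex over SVZ the mitochondrial median of 0.32 was -0.016 under median-ratio scaling and ran between -0.029 and 0.42 as each cortex cell was left out, while the median of all genes, -0.49, was -0.84 and between -0.96 and -0.82; the peroxisomal one of 1.00 ran between -0.29 and 1.31. For striatum over cortex the mitochondrial median of -0.23 was 0.16 under median-ratio scaling, where all genes had 0.62 in place of 0.10; the peroxisomal one of -3.03 was -1.66 and -3.94 at pseudocounts of 10 and 0.1, 0.18 with 10 TPM in both groups and -1.67 with log values averaged, and it ran between -3.34 and -1.02 as each cortex cell was left out. For ribosome-rich over low-ribosome cells the mitochondrial median of -0.94 was -0.034 with log values averaged, and the peroxisomal one of -1.42 was -0.32 with 10 TPM in both groups, -0.47 with log values averaged and -0.51 without mitotic cells. The mitochondrial rank correlation of -0.38 was -0.15 below 6% ribosomal protein share, -0.22 with genes detected held fixed and 0.31 for the number of mitochondrial genes detected; the peroxisomal one of -0.08 was 0.069 as Pearson's r of logs and 0.034 for the number of genes. The median share of SVZ cells over the 20 mitochondrial genes, 62.8% at 1 TPM, was 71.4% at 0.1 TPM. As each cortex cell was left out, the cortex over SVZ difference ran between -3.93 and 1.63 for Ehhadh and between -3.66 and 2.75 for Ppara. Striatum over cortex then ran between -2.36 and 3.34 for Cpt1c, between -5.03 and 0.32 for Acox3, between -5.56 and 0 for Ehhadh and between -6.41 and 0 for Ppara. Between ribosome-rich and low-ribosome cells, averaging log values gave 0.65 for Cpt1c, 0.18 for Decr1 and 0.65 for Acot2, and ogp2 cells alone gave 0.036 for Cpt2. With 10 TPM in both groups the median of all genes was -0.09 for striatum over SVZ and -0.39 for striatum over cortex. The cause of these changes was not tested. No paired analysis was possible because replicate numbers only name cells, and no test between groups was made.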
